A study of Rattus norvegicus with 96 samples.

Results

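The accumbens shell (NAc shell, for nucleus accumbens) of alcohol-preferring rats was examined 1 h after the last drinking session. The array titles placed 17 of the series' 96 Affymetrix rat expression arrays in this region at this hour. Of these, 10 came from rats given limited access to ethanol and 7 from rats that drank water and had no ethanol. All 17 were of the P rat strain, a line bred for high voluntary alcohol intake, and both groups shared the region, the hour and the RNA protocol. The deposited values are log2 expression levels per probe set, a group of short probes that reads 1 transcript region. Age, sex, the amount drunk and the number of animals behind an array are not given in the sources used here, and arrays are not tied to animals. The p-values below therefore measure the spread between arrays, part of which may be technical. In the text an array is called by its treatment and the number in its title, such as ethanol-33.

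The NAc shell is the limbic part of the ventral striatum and a target of dopamine neurons of the ventral tegmental area. Most of its neurons are GABA-releasing medium spiny neurons, which carry either the D1 dopamine receptor with dynorphin and substance P or the D2 receptor with enkephalin. Ethanol is known to raise dopamine in this region, and drug-induced activity there is commonly read through immediate early genes such as Fos, which neurons switch on within an hour of stimulation.

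Genes of medium spiny neurons read high on the 17 arrays. Drd1, the D1 receptor gene, had a median of 13.9 log2 over the 17 arrays, and Ppp1r1b, which encodes the medium spiny neuron phosphoprotein DARPP-32, had 13.31. On the central amygdala (CeA) arrays of the same hour, which look to have been normalized separately, the medians were 11.44 for Drd1 and 10.86 for Ppp1r1b. Array medians lay between 7.80 and 7.84 log2. By its median correlation with the other arrays of the region, ethanol-33 stood apart at 0.968, which is -4.76 scaled median absolute deviations from the centre of the 48, where 3 was the limit. The excess of the 3 prime over the 5 prime control probe set of Gapdh, a measure of RNA integrity, was 1.73 ± 0.24 log2 in ethanol arrays and 1.62 ± 0.08 in water arrays (SD, n = 10 and 7; exact permutation test, two-sided p = 0.280, adjusted over 2 tests 0.372). The same excess for beta-actin was 3.16 ± 0.16 in ethanol arrays and 3.08 ± 0.21 in water arrays (exact permutation test, two-sided p = 0.372, adjusted 0.372).

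The levels of cell type marker genes differed between arrays. The mean level of 24 dopamine and medium spiny neuron genes was 11.22 in ethanol-33 and 11.43 in water-19, and between 11.72 and 12.29 in the other 15 arrays. Oligodendrocyte markers, which read myelin, averaged 11.80 in ethanol-33 and 11.56 in water-19, and 10.71 in ethanol-32. Slc17a6, the vesicular glutamate transporter of thalamic and hypothalamic neurons, read 11.5 in ethanol-33 and 10.01 in water-19, against 6.37 to 9.15 in the other arrays. Cortical projection neuron markers averaged 9.83 in ethanol-32, 9.87 in ethanol-40 and 9.44 in water-24. The cortical genes Slc17a7 and Neurod6 were below the filter and are not in that mean. They read 8.78 and 7.91 in ethanol-32, 8.11 and 7.11 in ethanol-34, and 7.97 and 6.63 in ethanol-40. In water-24 they read 7.84 and 6.35, and in the other arrays at most 6.81 and 5.94. Both groups thus held arrays low in medium spiny neuron genes. High cortical values lay in ethanol-32, ethanol-34 and ethanol-40, and among water arrays in water-24 only. In such tissue samples, fewer cells of a type and less RNA per cell cannot be told apart.

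**Figure D1:**
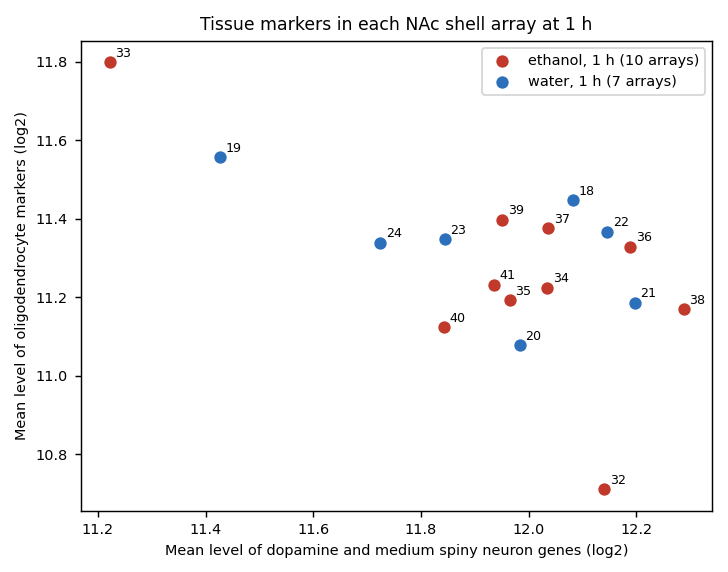
Mean log2 level of 24 dopamine and medium spiny neuron genes (horizontal) against that of 15 oligodendrocyte markers (vertical) in each NAc shell array at 1 h, 1 point per array with its title number (10 ethanol, red; 7 water, blue). Ethanol-33 (11.22, 11.80) and water-19 (11.43, 11.56) lie at the upper left, ethanol-32 (12.14, 10.71) at the bottom.

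The estimated differences between ethanol and water arrays at 1 h were small, and no probe set passed: 0 of 18625 tested (0%) had an adjusted p under 0.05 in limma with Benjamini-Hochberg adjustment, and the smallest adjusted p was 1.00. At an unadjusted p under 0.05 there were 351 probe sets (1.88%), 216 of them higher in ethanol arrays (1.16%) and 135 lower (0.725%). Uniform p-values would give 5%, so fewer small p-values were seen than an even spread holds. After a second quantile normalization the split was 176 higher and 180 lower (49.4% higher, against 61.5% here). Of 20 equal bins of the p scale, the lowest held 351 probe sets and the highest held 1150. The typical change was small, with a median of 0.00 log2 and a median size of 0.05 against a median standard error of 0.10. In 52% of the tested probe sets the estimate was above 0 and in 48% below. No probe set, in either direction, separated all 10 ethanol arrays from all 7 water arrays (0% each).

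The precision bounds what could have gone unseen. For 17406 probe sets (93.5%) the 95% confidence interval of the change lay within 0.5 log2 of 0 on both sides, which is a 1.41-fold difference. For 9099 (48.9%) it lay within 0.25 log2, and for 18579 (99.8%) within 1 log2. Only 14 probe sets had an estimate beyond 0.5 log2, 10 higher and 4 lower in ethanol arrays. Spread was similar in both groups, with a median SD of 0.18 log2 over probe sets in ethanol arrays and 0.16 in water arrays. Without ethanol-33 the ethanol value was also 0.16.

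**Figure D2:**
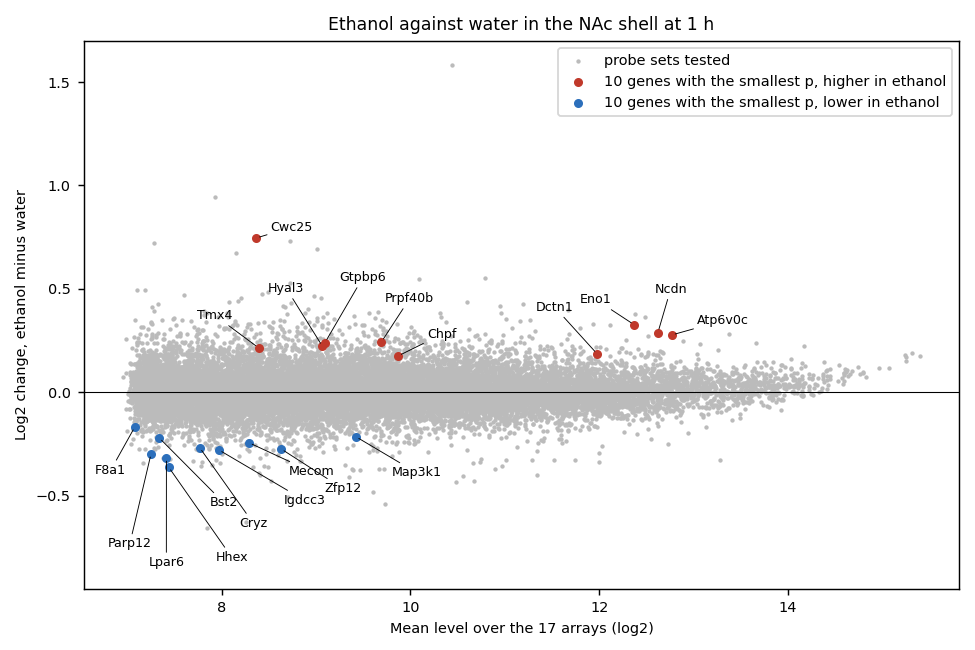
Log2 change at 1 h, ethanol minus water (vertical), against the mean log2 level over the 17 arrays (horizontal) for the 18625 probe sets tested; coloured points are the 10 genes with the smallest p in each direction (red higher, blue lower in ethanol arrays). Most points lie within 0.5 log2 of 0, and none of the coloured genes passed the test.

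The 10 genes with the smallest p among those higher in ethanol arrays had changes between 0.18 and 0.75 log2, and none passed. Eno1 (1367575_at), the glycolytic enzyme alpha-enolase, had a lowest, median and highest value of 11.99, 12.43 and 13.11 in ethanol arrays and 11.99, 12.11 and 12.44 in water arrays, a change of 0.33 ± 0.11 log2 (SE; limma p = 0.00437, adjusted 1.00). Its groups shared the same floor, and 5 of 10 ethanol arrays lay above every water array. Atp6v0c (1398755_at), the membrane-ring subunit of the proton pump that acidifies synaptic vesicles and lysosomes, read 12.60, 12.84 and 13.22 in ethanol arrays and 12.01, 12.67 and 12.80 in water arrays, a change of 0.28 ± 0.09. The lowest water value belonged to water-22, and without that array the change was 0.18.

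Ncdn (1367956_at), which encodes the neuronal protein neurochondrin, read 12.56, 12.71 and 12.91 in ethanol arrays and 12.02, 12.54 and 12.67 in water arrays (0.29 ± 0.10), with 8 of 10 ethanol arrays above every water array. Dctn1 (1367848_at), the large dynactin subunit that links the motor dynein to its cargo, read 11.72, 12.10 and 12.23 in ethanol arrays and 11.73, 11.84 and 12.05 in water arrays (0.18 ± 0.06). Prpf40b (1377010_at), a splicing factor, had the smallest p of this direction and read 9.58, 9.78 and 10.14 in ethanol arrays against 9.09, 9.60 and 9.73 in water arrays (0.24 ± 0.08). Every one of these genes had overlapping groups. Chpf (1373561_at), a chondroitin chain polymerizing factor, came nearest to separating them, since 9 of 10 ethanol arrays lay above all water arrays, with a change of 0.18 ± 0.06.

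Cwc25 (1374888_at), a component of the spliceosome, had the largest change of the 10, 0.75 ± 0.26 log2, or 1.68-fold. Its ethanol arrays read 8.21, 8.48 and 9.15 and its water arrays 7.01, 8.16 and 9.10. The water group held 3 low arrays, water-18 at 7.01, water-20 at 7.12 and water-22 at 7.40, while its highest array lay among the upper ethanol arrays. The remaining 3 were Hyal3, of the hyaluronidase family, at 0.22 ± 0.07, Gtpbp6, a GTP-binding protein, at 0.24 ± 0.08, and Tmx4, a thioredoxin-like protein of the endoplasmic reticulum membrane, at 0.21 ± 0.08.

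The 10 genes with the smallest p among those lower in ethanol arrays had changes between -0.36 and -0.17 log2, and none passed. Zfp12 (1380554_at), a zinc finger protein, read 8.20, 8.55 and 8.65 in ethanol arrays and 8.57, 8.67 and 9.35 in water arrays, a change of -0.27 ± 0.08 (limma p = 0.00112, adjusted 1.00). Its highest water value was that of water-22, without which the change was -0.18. Hhex (1387270_at), a homeobox transcription factor, read 6.92, 7.32 and 7.58 in ethanol arrays and 7.41, 7.54 and 7.92 in water arrays (-0.36 ± 0.11). In Hhex 8 of 10 ethanol arrays lay below every water array, and none lay above the water mean. Mecom (1376082_at), another zinc finger transcription factor, read 7.93, 8.17 and 8.53 in ethanol arrays and 8.25, 8.48 and 8.64 in water arrays (-0.24 ± 0.09).

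Map3k1 (1375673_at), a kinase at the head of the JNK cascade, read 9.23, 9.32 and 9.49 in ethanol arrays and 9.39, 9.54 and 9.72 in water arrays (-0.21 ± 0.07), and 8 of 10 ethanol arrays lay below every water array. Parp12 (1380071_at), an ADP-ribosyltransferase, and Bst2 (1390738_at), the virus-tethering membrane protein tetherin, are both known as interferon-induced genes. Parp12 read 6.81, 7.15 and 7.36 in ethanol arrays and 7.18, 7.45 and 7.65 in water arrays (-0.30 ± 0.09). Bst2 read 6.93, 7.29 and 7.53 in ethanol arrays and 7.28, 7.49 and 7.66 in water arrays (-0.22 ± 0.08). Igdcc3 at -0.28 ± 0.09, Lpar6, a lysophosphatidic acid receptor, at -0.32 ± 0.11, the quinone reductase Cryz at -0.27 ± 0.10 and F8a1 at -0.17 ± 0.06 completed the 10. F8a1, Parp12, Lpar6, Bst2 and Hhex were dim, with ethanol medians between 7.01 and 7.32 log2 beside the filter limit of 7.09.

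Other probe sets of these 20 genes were few. Tested further probe sets existed for 5 of the genes, 7 in all, and all 7 pointed the same way as the named one, by a median of 0.07 log2. Gtpbp6 had 3 of them, at 0.20, 0.17 and 0.04, and the first was the 1 further probe set with an unadjusted p under 0.05. The second probe set of Tmx4, far brighter, read 0.03, against 0.21 for the named one. Those of F8a1 and Cryz, also brighter, read -0.07 and -0.03, against -0.17 and -0.27 for the named ones. That of Map3k1, dimmer, read -0.12. These had no unadjusted p under 0.05. Water-22 was the lowest water array in 6 of the 10 higher genes, against 10.5% of all probe sets tested. Without it 9 of those 10 lay nearer to 0. In the 10 lower genes it was the highest water array in 2, against 25.2% of all tested, and without it 6 lay nearer to 0. The change fell under 1/1.5 of its main value in 2 of the 20 genes. Of the 351 probe sets at an unadjusted p under 0.05, 154 kept that p without water-22. Between 194 and 328 kept it with any other single array at 1 h left out.

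**Figure D3:**
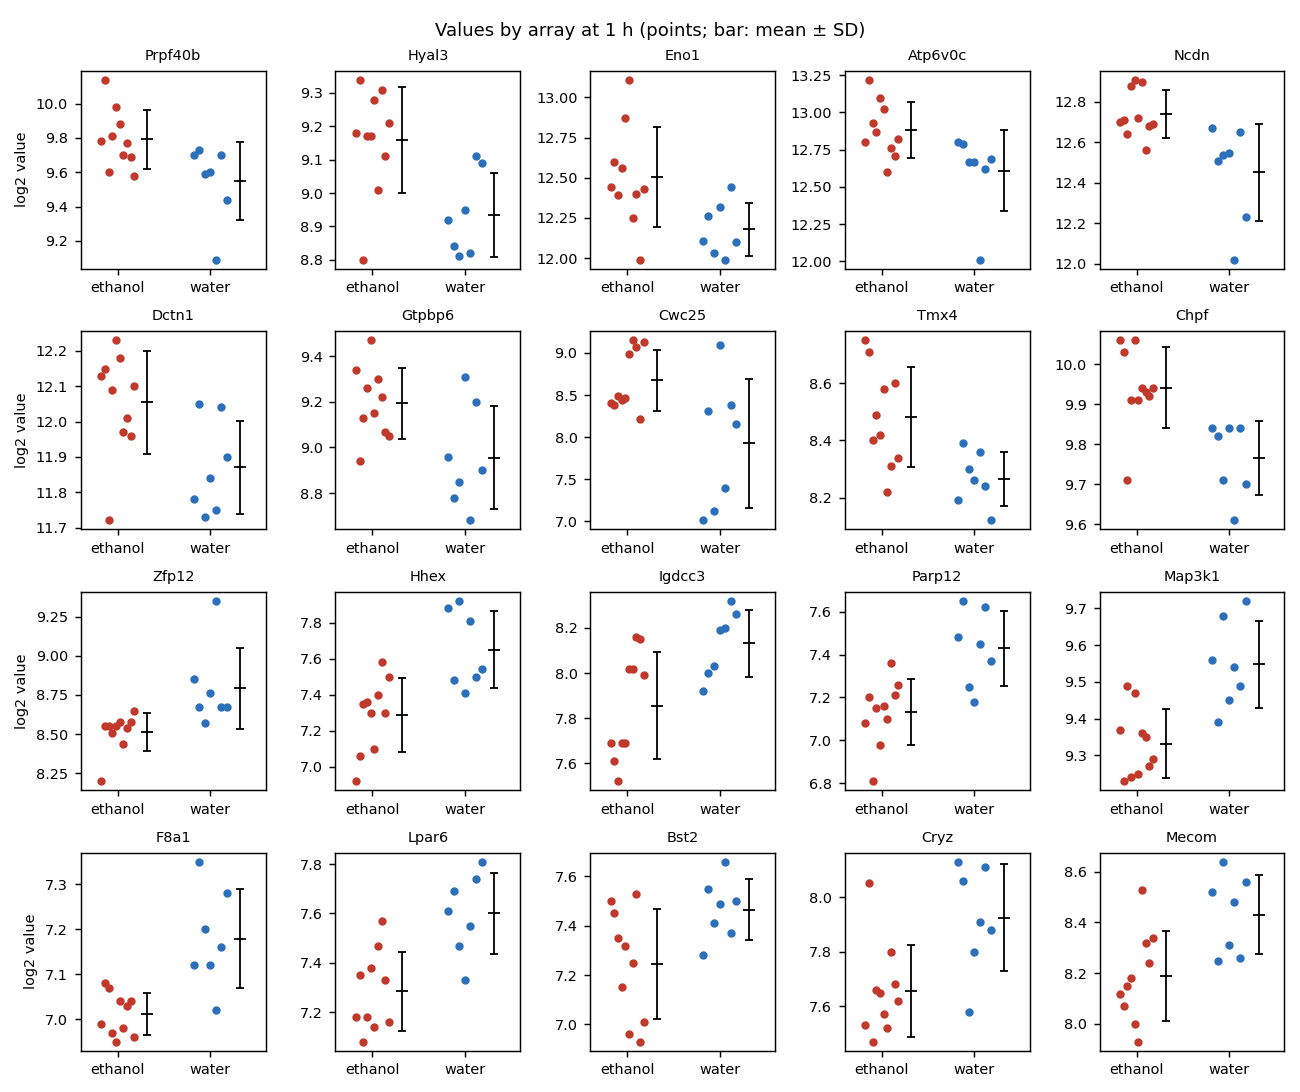
Log2 values of the 20 named genes in each array at 1 h (10 ethanol, red, left; 7 water, blue, right), with mean ± SD beside the points; vertical scales differ between panels. The groups overlap in every panel, and single water arrays, such as water-22 in Atp6v0c (12.01) and Zfp12 (9.35), lie away from the rest.

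All 17 immediate early genes tested had 95% intervals across 0. Fos (1375043_at) had 11.28, 11.86 and 12.34 in ethanol arrays and 11.34, 11.88 and 12.30 in water arrays, a change of -0.01 ± 0.20 log2 with a 95% interval of -0.40 to 0.39. Egr1 read 12.09, 12.73 and 13.48 in ethanol arrays and 11.90, 12.82 and 13.24 in water arrays (0.02 ± 0.20, interval -0.38 to 0.43). Arc, the synaptic plasticity gene, had 0.07 ± 0.27 (interval -0.48 to 0.62), Fosb 0.01 ± 0.23 and Nr4a1 -0.03 ± 0.23. The nearest to a change was Junb, whose arrays read 9.36, 9.91 and 10.49 with ethanol and 9.04, 9.84 and 10.32 with water (0.24 ± 0.17, interval -0.10 to 0.58), and 0.12 without water-22. A 1.41-fold change (0.5 log2) lay inside the intervals of Arc and Junb, and outside those of Fos and Egr1.

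Of the 17 immediate early genes tested, 12 were above 0 and 5 below, none had an unadjusted p under 0.05, and their median change was 0.02 log2. Over all 10320 genes with a probe set tested, 53.5% were above 0 with a median of 0.01. The level of this list was lowest in ethanol-33 at 9.77 and in water-19 and water-24 at 9.98 and 9.99, and highest in ethanol-32 at 11.05. Without ethanol-33 the median was 0.11, with 16 of 17 genes above 0. With the level of oligodendrocyte markers in the fit it was -0.04.

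Dopamine receptors and signalling genes of medium spiny neurons likewise had no member with an unadjusted p under 0.05. Drd1 (1368478_at) read 12.67, 13.86 and 14.13 in ethanol arrays and 13.19, 14.04 and 14.12 in water arrays (-0.07 ± 0.16, interval -0.40 to 0.26), and a second, dimmer probe set had -0.29 ± 0.26. Drd2, the D2 receptor gene, read 10.39, 11.12 and 11.47 in ethanol arrays and 10.33, 11.02 and 11.47 in water arrays (0.13 ± 0.20). The lowest ethanol value of both receptors was that of ethanol-33. Ppp1r1b had the smallest p of the list and read 12.58, 13.35 and 13.73 in ethanol arrays and 12.79, 13.06 and 13.47 in water arrays (0.21 ± 0.18, interval -0.16 to 0.57). The 24 genes had 17 above 0 and 7 below and a median of 0.05, which was 0.14 without ethanol-33 and -0.05 without water-19. Drd3 fell below the filter and was not tested.

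The peptide genes of both classes of medium spiny neuron had small estimates with intervals across 0. Penk, which encodes enkephalin, read 14.13, 14.49 and 14.70 in ethanol arrays and 14.07, 14.40 and 14.68 in water arrays (0.11 ± 0.10, interval -0.09 to 0.32). Pdyn, the dynorphin precursor, read 12.52, 13.10 and 13.33 in ethanol arrays and 12.45, 13.08 and 13.27 in water arrays (0.09 ± 0.14). Tac1, the substance P precursor, had 0.00 ± 0.24, Cartpt, a peptide of the reward system, 0.11 ± 0.20, and the kappa opioid receptor gene Oprk1 0.05 ± 0.20. Neuropeptide Y and its receptors were the 3 lowest members: Npy read 11.11, 11.76 and 12.12 in ethanol arrays and 11.57, 11.89 and 12.16 in water arrays (-0.17 ± 0.13), Npy1r had -0.25 ± 0.16 (-0.13 without ethanol-32) and Npy5r -0.23 ± 0.17. Of 16 genes tested, 8 were above 0 and 8 below, with a median of 0.02 and none at an unadjusted p under 0.05. Oprm1 and Crh were below the filter.

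Transmitter receptor genes had more estimates above 0 than below, as had all 10320 genes tested, of which 53.5% were above 0 and 46.5% below, 1.32% at an unadjusted p under 0.05 and higher and 0.698% at that p and lower. The counts of the lists that follow are to be read against these shares. Of 20 glutamate receptor genes, 16 were above 0 and 2 had an unadjusted p under 0.05, with a median of 0.06 that stayed between 0.05 and 0.09 over 28 alternative settings. Cnih2 (1373747_at), an auxiliary subunit of AMPA receptors, read 10.76, 10.96 and 11.13 in ethanol arrays and 10.13, 10.83 and 10.89 in water arrays (0.25 ± 0.09), and 0.16 without water-22. Grin1, the obligatory NMDA receptor subunit, read 11.20, 11.41 and 11.59 in ethanol arrays and 10.80, 11.34 and 11.47 in water arrays (0.17 ± 0.07), and 0.09 without water-22. A second, dimmer probe set of Grin1 had 0.04 ± 0.12. Cnih2 kept an unadjusted p under 0.05 in 27 and Grin1 in 22 of 28 alternative settings. Of 12 GABA genes 8 were above 0, with a median of 0.05, the smallest p belonging to the vesicular GABA transporter Slc32a1 at 0.16 ± 0.17. The GABA-synthesizing enzyme Gad1 had 0.07 ± 0.08.

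Genes of synaptic vesicles and release had 17 of 21 members above 0, against 53.5% of all genes, and a median of 0.06, or 0.03 without ethanol-33. Syt5 (1368417_at), a synaptotagmin, was the 1 member with an unadjusted p under 0.05 and read 10.11, 10.21 and 10.44 in ethanol arrays and 9.76, 10.03 and 10.15 in water arrays (0.24 ± 0.09). All 10 of its ethanol arrays lay above the water mean and 7 above every water array. Dnm1, the GTPase that pinches off vesicles, had 0.12 ± 0.08, and 0.04 without water-22. Kinase and plasticity genes had 15 of 24 members above 0 and a median of 0.05. Akt1 at 0.15 ± 0.06 was the 1 member with an unadjusted p under 0.05, and Gsk3b had the highest estimate at 0.17 ± 0.14. Potassium channel genes had 19 of 26 above 0 and a median of 0.03, and Bdnf was below the filter. Of 6 endocannabinoid genes 4 were above 0, with a median of 0.03, and Mgll, which breaks down an endocannabinoid, had 0.24 ± 0.20, and 0.13 without water-19.

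Oxidative phosphorylation genes, which encode the respiratory chain and ATP synthase, had the largest share of members on one side among the 29 lists. Of 55 tested, 47 were above 0 (85.5%, against 53.5% of all genes), but the median was only 0.05 log2, and 1 member had an unadjusted p under 0.05. Over the 28 alternatives between 40 and 51 of the 55 stayed above 0, with a median between 0.02 and 0.07. That member was Uqcrc1 (1388301_at), a core protein of complex III, which read 12.08, 12.23 and 12.58 in ethanol arrays and 11.71, 12.12 and 12.34 in water arrays (0.19 ± 0.08), and 0.13 without water-22, with an unadjusted p under 0.05 in 22 of the 28 alternatives. Atp5f1d, of ATP synthase, had 0.18 ± 0.10, and 0.12 without water-20. Cox4i1 had the highest estimate at 0.27 ± 0.22 and Cox5a the lowest at -0.09 ± 0.14. The mean level of the list overlapped between groups, lying between 12.06 and 12.41 in ethanol arrays and between 12.02 and 12.28 in water arrays.

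Stress-related lists had medians near 0. Glucocorticoid-induced genes had 12 of 17 members above 0 and a median of 0.05, and none had an unadjusted p under 0.05. Within it Fkbp5, a chaperone of the glucocorticoid receptor, read 10.01, 10.36 and 10.81 in ethanol arrays and 10.01, 10.37 and 10.72 in water arrays (0.12 ± 0.14). Sgk1 had -0.01 ± 0.14 and Tsc22d3 0.05 ± 0.10. Endoplasmic reticulum chaperones had a median of 0.01, with Hspa5, the chaperone BiP, at 0.05 ± 0.08 and the smallest p in Manf at 0.11 ± 0.07. Cytosolic heat shock genes had 0.03. There Dnajb6 read 9.37, 10.47 and 11.12 in ethanol arrays and 9.52, 9.71 and 10.56 in water arrays (0.55 ± 0.33), with 4 ethanol arrays above and 2 below all water arrays.

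Clock genes had 10 of 17 members above 0 and a median of 0.01. Dbp (1387874_at), a clock output transcription factor, read 10.81, 10.95 and 11.29 in ethanol arrays and 10.45, 10.84 and 11.02 in water arrays (0.22 ± 0.10, limma p = 0.0365, adjusted 1.00). All 10 ethanol arrays lay above the water mean. The unadjusted p was under 0.05 in 22 of 28 alternative settings and reached 0.120. Per1, a core clock gene that glucocorticoids also induce, had 0.05 ± 0.12. Genes that handle ethanol, aldehyde and acetate had 9 of 14 above 0 with a median of 0.02, and antioxidant genes 12 of 21 with a median of 0.02. Chromatin-modifying enzymes had 15 of 29 above 0 with a median of 0.03, and cholesterol genes 10 of 20 with a median of 0.00.

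Interferon-regulated genes were the list with the lowest median, -0.11 log2, with 10 of 13 members below 0, against 46.5% of all genes. Besides Bst2, described above, Usp18 (1389034_at), which removes ISG15 from proteins, had an unadjusted p under 0.05. It read 7.58, 7.80 and 7.95 in ethanol arrays and 7.85, 8.06 and 8.14 in water arrays (-0.22 ± 0.10), and no ethanol array exceeded the water mean. It kept that p in 25 of the 27 settings in which it was tested. Irf9 had -0.16 ± 0.08, Ifitm3 -0.14 ± 0.10, Rtp4 -0.13 ± 0.08 and Isg15 -0.09 ± 0.09. The median stayed negative in all 28 alternatives but was -0.07 without water-19 and -0.01 with a filter at the 60th percentile of expression, since most of these probe sets are dim. Inflammatory genes had 5 of 9 below 0 and a median of -0.05, and 0.03 without ethanol-33. Microglia markers, which include the complement genes C1qa, C1qb and C1qc, had 4 of 9 above 0 and a median of 0.00.

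Markers of the other cell types gave the following. Oligodendrocyte markers had 11 of 15 below 0 and a median of -0.04, which was -0.11 without ethanol-33. The smallest p-values were in Mal at -0.25 ± 0.17 and Opalin at -0.26 ± 0.18, and water-22 was the highest water array in both. Without water-22 the changes were -0.14 in Mal and -0.13 in Opalin, and without ethanol-32 they were -0.16 and -0.15. Astrocyte markers had 10 of 15 above 0 and a median of 0.03, led by Apoe at 0.22 ± 0.12, and 0.13 without water-22. In vessel and pericyte markers 9 of 15 were below 0, with a median of -0.03. Among them Kdr, the main receptor of vascular endothelial growth factor, read 7.54, 7.86 and 8.10 in ethanol arrays and 7.77, 8.08 and 8.27 in water arrays (-0.20 ± 0.09, unadjusted p under 0.05), and -0.11 with array quality weights. It kept that p in 16 of the 27 settings in which it was tested. Vwf went the other way, with the highest estimate of the list at 0.31 ± 0.16 and an unadjusted p above 0.05. In Vwf 6 of 10 ethanol arrays lay above every water array.

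Cholinergic and other interneuron markers had 5 of 8 below 0 and a median of -0.07. Cortical projection neuron markers had 5 of 8 above 0, and a median of 0.05, with Nrn1 at 0.48 ± 0.36, and 0.26 without ethanol-40. Septal, hypothalamic and thalamic markers had 4 of 8 above 0 and a median of 0.07, which was 0.01 without ethanol-33. Slc17a6 had the highest estimate at 0.33 ± 0.60, and its highest value was that of ethanol-33 at 11.5. Avp had the smallest p of the list and the lowest estimate, -0.16 ± 0.08. Meningeal fibroblast markers had 3 of 6 above 0 with a median of 0.01, and the 3 choroid plexus and ependyma markers tested had a median of -0.01. The part of tissue content in any of the differences above was not tested beyond the 2 fits that held a marker level, in which 0 probe sets passed as well.

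**Figure D4:**
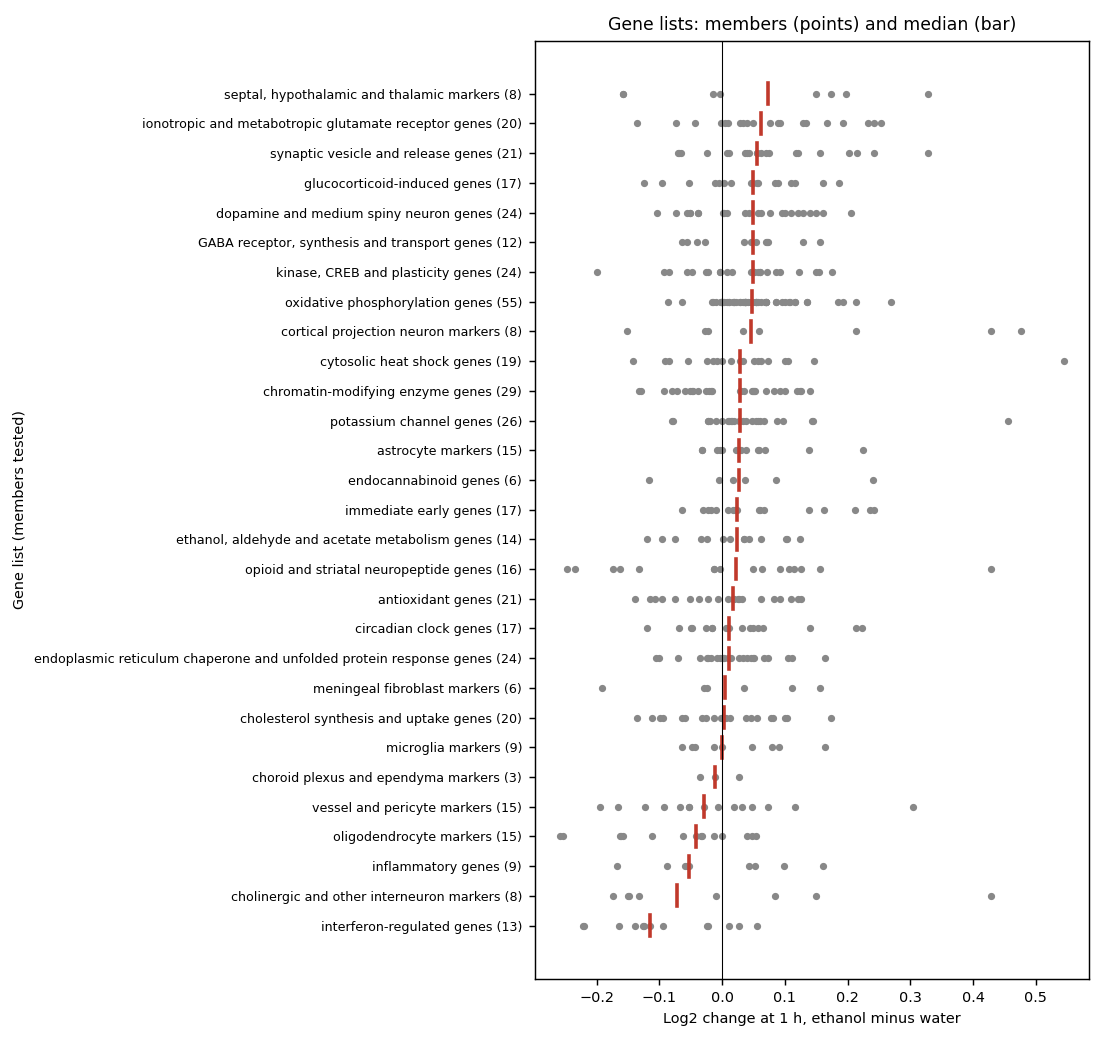
Log2 change at 1 h, ethanol minus water, of each tested member (grey points) of 29 gene lists, with the list's median (red bar) and the number of members tested in brackets. Medians run from -0.11 for interferon-regulated genes to 0.07 for septal, hypothalamic and thalamic markers, and single members spread far wider than the medians.

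The changes at 1 h were set against those at 6 and 24 h in the same region, which rest on other arrays. At an unadjusted p under 0.05 there were 351, 975 and 696 probe sets at 1, 6 and 24 h, and 0 passed at each. In the tests of the difference itself 0 probe sets passed in limma: at an unadjusted p under 0.05 there were 204 (1.1%) for 1 h minus 6 h, 262 (1.41%) for 1 h minus 24 h and 262 (1.41%) for 1 h minus the mean of both. Among probe sets with 1 symbol, the smallest p-values for 1 h minus 6 h were those of Banf1, with 0.02 at 1 h and 0.30 at 6 h, and of Dcaf15, with 0.19 (0.12 without water-22) and -0.15 at these times. Asph had -0.14 and 0.18, and Rftn1 -0.12 and 0.17. For 1 h minus 24 h they were Mrto4, with -0.07 at 1 h and 0.25 at 24 h, the potassium channel Kcnc4 with 0.14 and -0.15, Ndufaf7 with -0.09 and 0.22, and Steap3 with 0.14 and -0.18. Against the mean of both later times the 4 were Dcaf15, Mrto4, Ndufaf7 and Adgra3, the last with -0.08 at 1 h (-0.015 without water-19), 0.20 at 6 h and 0.21 at 24 h. The 1 h values of Banf1 and Mrto4 were also moved by over 1.5 times by leaving out single arrays, to 0.01 without water-24 and to -0.03 without water-22.

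Estimates of the different hours pointed the same way more often than not. Of the 216 probe sets at an unadjusted p under 0.05 and higher at 1 h, 184 (85.2%) were also above 0 at 6 h and 160 (74.1%) at 24 h, against 53% and 53.8% of all tested. Of the 135 lower ones, 108 (80%) were below 0 at 6 h and 96 (71.1%) at 24 h, against 47% and 46.2% of all tested. Their median changes were 0.22, 0.12 and 0.07 at 1, 6 and 24 h for the higher ones and -0.20, -0.08 and -0.04 for the lower ones, where the 1 h values are the ones that chose them. Across the 18625 probe sets the changes at 1 and 6 h had a Pearson r of 0.391, those at 1 and 24 h 0.234, and those at 6 and 24 h 0.444. These are descriptions across probe sets, which are not independent and share 1 normalization.

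All 10 named higher genes were above 0 at 6 h and 9 at 24 h, while 9 and 8 of the lower ones were below 0 at these times. Atp6v0c had 0.28, 0.35 and 0.16 at 1, 6 and 24 h, and Gtpbp6 0.24, 0.14 and 0.22. Zfp12 had -0.27, -0.02 and 0.03. Oxidative phosphorylation genes had medians of 0.05, 0.15 and 0.10 at 1, 6 and 24 h, with 47, 55 and 55 of 55 members above 0. Immediate early genes had 0.02, 0.20 and 0.05, and cholesterol genes 0.00, 0.15 and 0.07. In none of these 3 lists did more than 1 member have an unadjusted p under 0.05 for the difference from 6 h or from 24 h.

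**Figure D5:**
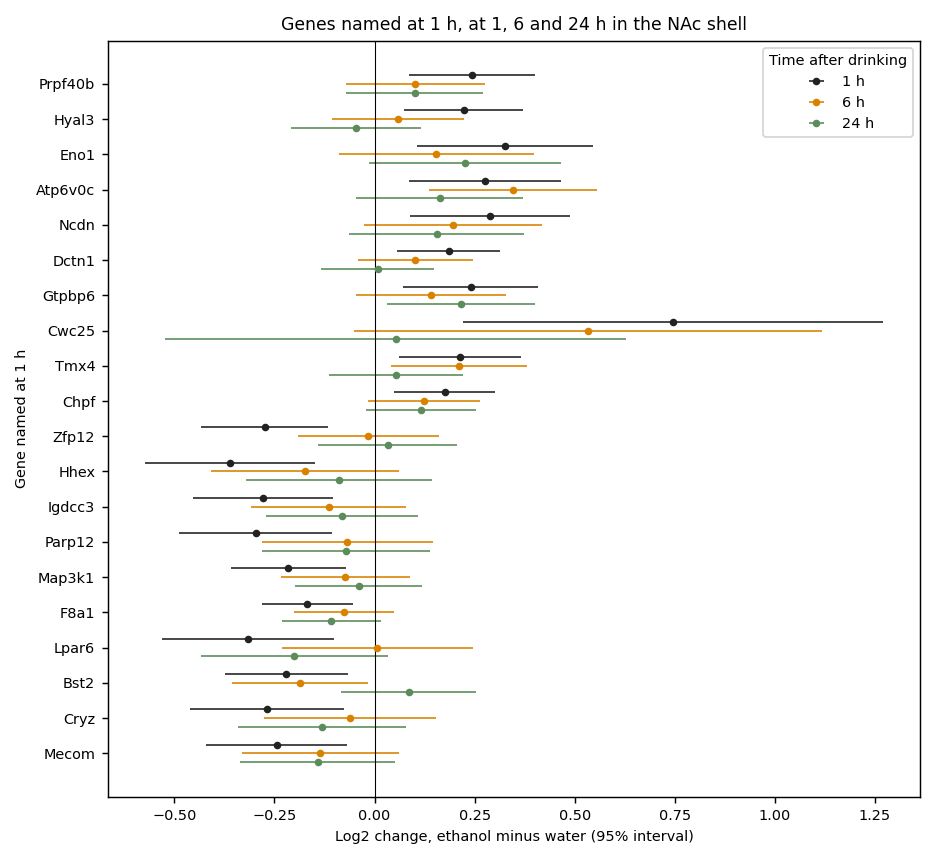
Log2 change, ethanol minus water, with its 95% confidence interval, of the 20 genes named at 1 h, shown at 1 h (black), 6 h (orange) and 24 h (green) in the NAc shell. The genes were chosen by their p at 1 h, so their 1 h intervals exclude 0; Atp6v0c (0.28, 0.35, 0.16) and Tmx4 (0.21, 0.21, 0.05) are the higher genes whose 6 h interval excludes 0.

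The effect at 1 h was also set against that in the CeA at the same hour, in a fit of all 96 arrays. For the difference between regions, 0 probe sets passed in limma and 438 (2.35%) had an unadjusted p under 0.05. Among probe sets with 1 symbol, the smallest p-values belonged to Khsrp, an RNA-binding protein of mRNA decay, with a difference of -0.81 ± 0.23 log2, NAc shell minus CeA, Sipa1l3 with 0.47 ± 0.13, Trappc5 with -0.52 ± 0.15 and Samd4b with 0.54 ± 0.15 (adjusted p = 1.00 each). Sipa1l3 read 0.11 ± 0.08 in the NAc shell and -0.36 in the CeA, Trappc5 -0.02 ± 0.08 and 0.49, and Samd4b 0.12 ± 0.07 and -0.42. Khsrp had a CeA change of 0.79 ± 0.16, nearly the size of its difference, and its NAc shell estimate is not given here. Further probe sets of the NAc shell read 0.03 and -0.03 for Samd4b, and 0.02 and 0.01 for Trappc5. Cwc25 had 0.75 in the NAc shell and 1.06 in the CeA, while Eno1 had 0.33 and -0.01, Atp6v0c 0.28 and 0.03, and Ncdn 0.29 and -0.06. Of the 206 probe sets higher in the NAc shell at an unadjusted p under 0.05 that were tested in the CeA too, 142 (68.9%) were above 0 there, against 54.8% of all tested. Of the 125 lower ones 73 (58.4%) were below 0, against 45.2%. Arrays are not tied to animals, so arrays of both regions may come from the same rats. Agreement between the regions is therefore not that of groups known to be independent.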

How the data were processed

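RNA of 48 NAc shell arrays was compared, 17 of them taken 1 h after drinking. Per the labels' protocols, Trizol and RNeasy columns yielded the total RNA, of which 25 ng was labelled in 2 cycles. The deposited values are log2 expression levels that the authors made by RMA, per the submitters' processing notes; the RMA version and any filter are not given in the sources used here. No raw intensities were used. After 57 control probe sets were left out, 31042 remained; 20826 carried 1 symbol, 436 several, and 9780 are unnamed here (20758 symbols updated by Entrez ID). Tests used the 18625 probe sets with a mean above the 40th percentile (7.09 log2).

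The fit was limma 3.58.1 in R 4.3.3 over all 48 arrays, with a mean for each of 6 groups of treatment and time, a trend on intensity, no covariate, and Benjamini-Hochberg adjustment; adjusted p under 0.05 passed. It was checked on simulated data. Arrays of both regions were treated as independent in the 96-array fit. Named genes were the 10 smallest p in each direction, the 2 smallest p of each list, a set of core genes, and the 4 smallest p of each difference. A list took the brightest probe set of a gene. The lists, core genes and the 17 arrays were chosen with earlier results of these data known, so no list is independent support. The number of arrays limits the precision. Alternatives were testing every probe set, raising the filter to the 60th percentile, a second quantile normalization, weights for array quality, the 17 arrays alone, no trend, the Gapdh end difference as a covariate, other thresholds, and each array at 1 h left out. Added after the data were seen were fits without arrays of low correlation, without ethanol-32 and ethanol-33, and with the level of medium spiny neuron genes or oligodendrocyte markers as a covariate.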

Additional observations from a re-analysis of the deposited data

Results flagged for a closer look

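Dixon's 95% limit was applied to 224 groups of values, of the named genes and of technical measures. Chance alone exceeds it in about 1 in 20. In 24 groups (10.7%), all of named genes, 1 array lay farther from its nearest neighbour than this limit allows. Of these, 8 were low values of ethanol-33: Drd1 12.67 (nearest 13.63), Drd2 10.39 (10.91), Ppp1r1b 12.58 (13.17), Cartpt 11.44 (12.6), Oprk1 9.68 (10.35), Homer1 11.12 (11.57), Fosb 9.9 (10.57) and Mgll 9.99 (10.9). This is the array with the lowest level of medium spiny neuron genes.

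Another 7 were values of water-22. It was low in the synaptic genes Cnih2 at 10.13 (nearest 10.6), Grin1 at 10.8 (11.2) and Dnm1 at 13.18 (13.6), and in Atp6v0c at 12.01 (12.62). It was high in the myelin genes Mal at 11.27 (10.57) and Opalin at 10.54 (9.77), and in Zfp12 at 9.35 (8.85). Its mean level of oligodendrocyte markers, 11.37, lay inside the range of the other water arrays, 11.08 to 11.56.

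The other flags were spread over arrays. Ethanol-32 was low in Zfp12 at 8.2 (nearest 8.44) and Npy1r at 8.93 (9.75). Ethanol-34 was low in Dctn1 at 11.72 (11.96) and Chpf at 9.71 (9.91) and high in Per1 at 10.58 (10.24). Single high values were those of Tm7sf2 in ethanol-39 at 8.79 (8.63), Rftn1 in ethanol-35 at 7.65 (7.39), Dnajb6 in water-20 at 10.56 (9.78) and Nrn1 in water-24 at 8.88 (8.2). What set these arrays apart was not tested.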

How the results depend on the processing

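In every setting run, 0 probe sets passed for ethanol at 1 h and for its differences from 6 h, 24 h, their mean and the CeA, also at an adjusted p under 0.10; the smallest adjusted p at 1 h was 0.542, with the Gapdh end difference as a covariate. The 351 probe sets at an unadjusted p under 0.05 were 36 under 0.01, 758 with no filter, 204 at the 60th percentile, 647 with array quality weights, 532 with the medium spiny neuron gene level and 528 with the oligodendrocyte marker level as a covariate. The first of these is a stricter threshold and the next 2 test other numbers of probe sets; the cause was not tested for the others. With each array left out in turn the count lay between 244 and 488, and it was 517 without the 5 arrays of low correlation. The higher and lower calls split 216 to 135, or 61.5% higher, but 176 to 180 (49.4%) with repeated quantile normalization and 389 to 369 (51.3%) with no filter. Of the 20 named genes, 20 kept their direction in every setting in which they were tested and 19 an unadjusted p under 0.05, Tmx4 being the exception; 11 of the 20 were not tested at the 60th percentile. Leaving out 1 array moved the median change of 28 of the 29 lists by over 1.5 times, and the sign turned in 5 of 28 settings for immediate early genes, 2 for medium spiny neuron genes, 15 for cholesterol genes and 19 for microglia markers. The choroid plexus list had no member left at the 60th percentile and was not run there. No paired analysis was possible because ethanol arrays are numbered 32 to 41 and water arrays 18 to 24, so that the groups share no number.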

Other observations

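The largest change of a probe set at 1 h was that of 1399059_at, named Ezh1, a histone methyltransferase of the Polycomb system, which was singled out after its values were seen. Its ethanol arrays read between 10.28 and 11.49 log2, and its water arrays between 6.41 and 11.42, because water-18 at 6.41 and water-22 at 6.45 lay far below the other 5, which were at 10.15 or above (change 1.58 ± 0.57). Over all 96 arrays this probe set had 2 separate levels: 7 arrays were at 6.87 or below and the rest at 10.15 or above. Of the 7, 1 was among 62 ethanol arrays and 6 were among 34 water arrays. Since arrays are not tied to animals, arrays of both regions may come from the same rats, and the 7 may not be 7 separate animals. The water arrays lay 2 in the NAc shell and 2 in the CeA at 1 h, and 1 in each region at 6 h, and the ethanol array was in the NAc shell at 24 h. The pattern was seen while looking through the values, and whether the 2 levels of this probe set reflect expression of the gene was not tested.

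Other probe sets beyond 0.5 log2 with a symbol, also picked after their values were seen, include Mc4r, the melanocortin receptor of feeding circuits. It read 7.64, 8.51 and 8.95 (lowest, median, highest) in ethanol arrays and 8.48, 8.93 and 9.33 in water arrays, a change of -0.51 ± 0.23, with -0.28 at 6 h and -0.55 at 24 h. In the CeA at 1 h the change of Mc4r was 0.11. Mpeg1, a pore-forming protein of macrophages, had -0.63 ± 0.27 in the NAc shell and -0.62 in the CeA at 1 h. In the NAc shell Mpeg1 had -0.38 at 6 h and 0.05 at 24 h. Its 3 highest arrays were water-18, water-20 and water-22, at 9.51, 9.59 and 9.34, which are also the 3 lowest in Cwc25. Tmem100 had 0.53 ± 0.24, with 0.63 at 6 h and 0.11 at 24 h, and 0.42 in the CeA at 1 h. None of these passed the test.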
